A study of Mus musculus with 13 samples.

Results

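*Gtse1*, *Eda2r*, *Ddias*, *Pierce1*, *Zfp365*, *Aen* and *Ephx1* are 7 genes linked to p53 that were chosen by their measured levels in these same libraries, for a clear separation of the 2 genotypes. They are 7 of the 33618 genes in the counts and 7 of the 16753 that passed the filter on low counts. Whole parametrial white adipose tissue (pmWAT), a visceral fat depot, of female mice was sequenced as mRNA, with a separate library for each of 7 mice labelled *Lmna* fl/fl and 6 labelled *Lmna* iADKO. *Lmna* encodes lamin A/C, proteins of the nuclear lamina. Both genotypes carried alleles with *Lmna* exons 10 and 11 floxed. All mice received tamoxifen at 50 mg/kg for 5 days when they were 12 to 14 weeks old, and tissue was collected 2 weeks later. The iADKO mice also carried *Adipoq*-CreERT2, a tamoxifen-activated recombinase driven by the adiponectin promoter, which is active in adipocytes. The fl/fl controls lacked the recombinase. The tissue also holds macrophages, progenitors, endothelial and mesothelial cells, which the recombinase does not target. Because the libraries are from whole tissue, fewer cells of a type and less RNA per cell cannot be told apart.

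The p53 protein is a transcription factor that is stabilized after DNA damage and other stresses. It binds response elements made of a pair of 10-base motifs near its target genes, and its targets arrest the cell cycle, repair DNA, trigger apoptosis or, like *Mdm2*, restrain p53 itself. *Gtse1* encodes a microtubule-associated protein of S and G2 phase that binds p53 and lowers its activity. *Eda2r* encodes a receptor of the tumor necrosis factor receptor family for ectodysplasin A2. *Ddias* encodes a suppressor of apoptosis after DNA damage. *Pierce1* encodes a protein of the inner wall of ciliary microtubules, and *Zfp365* a protein linked to genome stability. *Aen* encodes a nuclease that acts in apoptosis, and *Ephx1* the microsomal epoxide hydrolase, which detoxifies reactive epoxides.

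Because these genes are linked to p53, the sequence within 2500 bp on either side of each canonical start site on GRCm39 was searched for a p53 response element, on both strands. A match was 20 bases made of 2 adjacent copies of the p53 10-base consensus, with the central C and G of each copy fixed and mismatches counted at the other 16 places. The best match of each gene with at most 3 mismatches is shown, with the 20 bases in capitals and 5 flanking bases on each side, on the strand of the gene.
Gtse1: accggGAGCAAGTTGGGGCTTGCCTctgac
Eda2r: tgcctGGGCAAGTCCGGGCCTGTGTaaaaa
Zfp365: tagcaAGACTAGGCTGGGCAAGACTggcac
Ddias: acctaAGGCATGTTCTGACTCGTTAgtaat
Aen: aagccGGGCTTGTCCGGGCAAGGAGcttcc

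The *Gtse1* match, at chr15:85744146-85744165 in intron 1 and 234 bp after the start site, had 1 mismatch. The *Eda2r* match, at chrX:96420140-96420159 in intron 1 and 690 bp after the start, had 2 mismatches. The *Zfp365* match lay 34 bp after the start, in the untranslated part of exon 1 at chr10:67748536-67748555, and also had 2. The *Ddias* match, 954 bp after the start at chr7:92522492-92522511 in intron 1, had 3 mismatches. *Aen* held 3 matches with 3 mismatches, of which the one shown lay 20 bp after the start at chr7:78545685-78545704 in the untranslated part of exon 1. The best sequences of *Pierce1* and *Ephx1* in this window had 4 and 5 mismatches. A match with at most 2 mismatches was found in 3 of the 7 genes and in 4.86% of the 21757 protein-coding genes. With at most 3 mismatches it was found in 5 of the 7 and in 21.8% of protein-coding genes, and with at most 1 mismatch in 1 of the 7 and in 0.703%. A match of letters is a description of sequence and was not measured as binding.

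Each mouse had between 18854223 and 19776491 counts on genes. Values below are CPM, the counts of a gene scaled to a common library size after TMM normalization, and fold changes are log2 ratios of iADKO over fl/fl from edgeR's quasi-likelihood fit on all 16753 genes, given with their standard errors. The counts of *Lmna* itself are for the whole gene and do not separate the floxed exons. Mean *Lmna* was 84.7 ± 7.51 CPM (SD, n = 7) for fl/fl and 96.7 ± 11.5 CPM (SD, n = 6) for iADKO mice, and its log2 fold change was 0.19 (standard error 0.079, adjusted p = 0.0785 by edgeR). Since *Lmna* was no lower in iADKO, the genotype of each library below is that of its label.

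Across all genes tested, 14.1% were called higher and 16.3% lower in iADKO at an adjusted p under 0.05, and in 2.71% every iADKO value lay above every fl/fl value. All 7 genes were among those called higher and among those without overlap. They were chosen for that separation, so their levels between genotypes are given as a description, without a test. Their median log2 fold change was 1.56, against 0.03 over all genes tested.

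**Figure D1:**
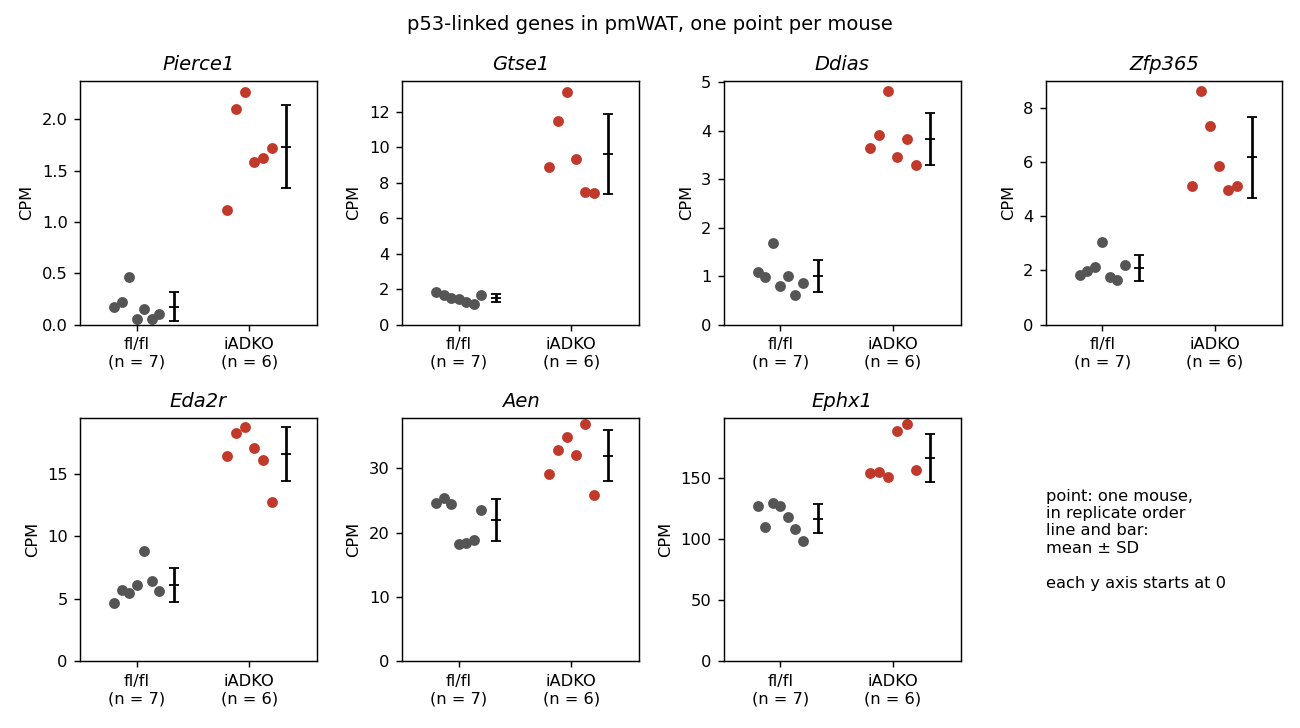
CPM (y axis, from 0) of each of the 7 genes, in order of fold change, with one point per mouse and the mean ± SD beside each genotype. No iADKO point falls below any fl/fl point, and the gap is narrowest in *Aen*, where the highest fl/fl mouse was at 25.4 CPM and the lowest iADKO mouse at 25.8.

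*Gtse1* (ENSMUSG00000022385) has 12 exons in its canonical transcript and lies on the plus strand at chr15:85743605-85760775. It was at 1.16 CPM in the lowest fl/fl mouse, at a median of 1.5 and at 1.84 in the highest. In iADKO it was at 7.41, 9.13 and 13.1 CPM in the lowest, median and highest mouse. The lowest iADKO mouse was 4.03 times the highest fl/fl mouse, the widest gap of the 7 genes. The means were 1.5 ± 0.238 (SD, n = 7) and 9.62 ± 2.28 CPM (SD, n = 6), which gave a ratio of 6.40 and a log2 fold change of 2.67 (standard error 0.16), the sixth highest of all genes tested. Between 21 and 32 reads per mouse stood behind the fl/fl values, and between 151 and 273 behind the iADKO values. The fl/fl mice varied by a coefficient of variation (CV) of 15.8%, no more than the 19.1% that counting error alone gives at their mean count. The iADKO mice varied by 23.7%, above the 7.06% of counting error.

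*Ddias* (ENSMUSG00000030641, 6 exons, minus strand, chr7:92506733-92523455) was between 0.607 and 1.68 CPM in fl/fl, with a median of 0.988. In iADKO it was between 3.29 and 4.81 CPM, with a median of 3.74. The means of 1.01 ± 0.336 (SD, n = 7) and 3.82 ± 0.536 CPM (SD, n = 6) gave a ratio of 3.80 and a log2 fold change of 1.92 (standard error 0.189). Fl/fl replicate 3 was the highest of its genotype in *Ddias*, and was also the highest in *Pierce1*.

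*Eda2r* (ENSMUSG00000034457, 8 exons, minus strand, chrX:96320270-96420847) was at 4.66, 5.71 and 8.86 CPM in the lowest, median and highest fl/fl mouse, and at 12.8, 16.7 and 18.8 CPM in the corresponding iADKO mice. The means were 6.10 ± 1.33 (SD, n = 7) and 16.6 ± 2.13 CPM (SD, n = 6), which gave a ratio of 2.71 and a log2 fold change of 1.44 (standard error 0.133). Fl/fl replicate 5, at 8.86 CPM, stood above the other fl/fl mice, which reached 6.40 CPM, and iADKO replicate 6 was the lowest of its genotype. Without both of these mice the log2 fold change was 1.59. *Zfp365* (ENSMUSG00000037855, 5 exons, minus strand, chr10:67721933-67748580) was at 1.66, 1.98 and 3.06 CPM in the lowest, median and highest fl/fl mouse, and at 4.97, 5.48 and 8.63 CPM in iADKO. Its means were 2.09 ± 0.47 (SD, n = 7) and 6.16 ± 1.49 CPM (SD, n = 6), a ratio of 2.95 and a log2 fold change of 1.56 (standard error 0.173).

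*Pierce1* (ENSMUSG00000026831, 3 exons, minus strand, chr2:28344166-28356528) had the second highest log2 fold change of all genes tested, 3.28 (standard error 0.339), and the lowest level of the 7. The fl/fl mean was 0.175 ± 0.141 CPM (SD, n = 7), the iADKO mean 1.73 ± 0.406 CPM (SD, n = 6) and their ratio 9.93. The fl/fl libraries held 1 to 8 reads each, or 22 in all, and the iADKO libraries 23 to 47. The fl/fl CV was 80.5%, and counting error alone would give 56.4%, so its fold change was the least precise of the 7. With at least 10 counts required in every sample, *Pierce1* was not tested.

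*Aen* and *Ephx1* were the most abundant of the 7 and changed least. *Aen* (ENSMUSG00000030609, 3 exons, plus strand, chr7:78545602-78560957) was at 18.3, 23.5 and 25.4 CPM in the lowest, median and highest fl/fl mouse, and at 25.8, 32.4 and 36.9 CPM in iADKO. The genotypes were therefore separated by 1.02 times. The means of 22.0 ± 3.23 (SD, n = 7) and 31.9 ± 3.99 CPM (SD, n = 6) gave a log2 fold change of 0.54 (standard error 0.104). *Ephx1* (ENSMUSG00000038776, 9 exons, minus strand, chr1:180803775-180848537) was between 98.2 and 129 CPM in fl/fl (median 118) and between 151 and 194 CPM in iADKO (median 156). Its means were 117 ± 11.8 (SD, n = 7) and 167 ± 19.5 CPM (SD, n = 6), a ratio of 1.43 and a log2 fold change of 0.51 (standard error 0.083). These fold changes ranked 1421 and 1557 among all genes, well below those of the other 5 genes, and the mice of a genotype differed by a CV of 12.5% to 14.7% in *Aen* and 10.1% to 11.7% in *Ephx1*.

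Per kilobase of exon, *Ephx1* was the highest in fl/fl at 14.8 CPM per kb, followed by *Aen* at 1.93, *Eda2r* at 0.814 and *Gtse1* at 0.444. In iADKO, *Ephx1* was at 21.1 CPM per kb, *Gtse1* at 2.84, *Aen* at 2.81 and *Eda2r* at 2.21. On this scale *Gtse1* reached the level of *Aen*, and these did not differ beyond their spread. The length was that of all annotated exons of a gene together, 3.39 kb for *Gtse1* and 11.4 kb for *Aen*. Which transcripts were expressed was not measured. In CPM *Aen* stayed above *Gtse1* in iADKO, at 31.9 against 9.62. *Ddias* went from 0.272 to 1.03 CPM per kb, *Zfp365* from 0.242 to 0.713 and *Pierce1* from 0.0645 to 0.641. The rise in level was largest for *Ephx1*, at 6.31 CPM per kb, although its ratio was the smallest.

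The p53 pathway around these genes was read from a list of 43 other targets, of which 42 were tested. In iADKO, 24 of them rose, against 14.1% of all genes, 4 fell, against 16.3% of all genes, and 14 did not pass the test. Their median log2 fold change was 0.31, and in 12 of them every iADKO value lay above every fl/fl value. *Cdkn1a*, the p21 inhibitor of cyclin-dependent kinases, rose from 25.6 ± 10.8 (SD, n = 7) to 116.7 ± 23.4 CPM (SD, n = 6), or by 2.19 on the log2 scale (standard error 0.252, adjusted p = 0.000256 by edgeR). Its highest fl/fl mouse was at 41.2 CPM and its lowest iADKO mouse at 84 CPM. As a ratio this gap was wider than in *Ddias*, *Zfp365*, *Eda2r*, *Ephx1* or *Aen* and narrower than in *Gtse1* or *Pierce1*. *Gdf15*, a secreted stress hormone, rose by 2.22 (adjusted p = 0.000426 by edgeR). *Mdm2*, the ligase that degrades p53, was between 34.7 and 47.1 CPM in fl/fl and between 62.9 and 84.5 CPM in iADKO, so it rose by 0.88 on the log2 scale (standard error 0.076, edgeR adjusted p = 4.5e-05). *Psrc1*, a spindle protein, rose by 1.46 (adjusted p = 0.000168 by edgeR). *Gtse1* and *Pierce1* had higher log2 fold changes than every one of the 42, which follows in part from the choice of the 7 genes.

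By role, 10 of the 15 arrest and feedback targets rose and 1 fell, and 9 of the 12 apoptosis targets rose and none fell. Of the 6 DNA repair and nucleotide supply targets, 2 rose and 2 fell, and of the 9 tested targets in metabolism, autophagy and secretion, 3 rose and 1 fell. The targets that fell were *Phlda3*, which restrains the kinase AKT (log2 fold change -0.41, adjusted p = 0.0397 by edgeR), *Dram1*, a lysosomal regulator of autophagy (-0.35, adjusted p = 0.0217), the ribonucleotide reductase subunit *Rrm2b* (-0.35, adjusted p = 0.00288) and the DNA damage sensor *Xpc* (-0.29, adjusted p = 0.0152). With the animal-number series described below as a block, 7 arrest and feedback and 4 apoptosis targets rose, and of the 4 targets that fell only *Rrm2b* passed (adjusted p = 0.0189 by edgeR). With the macrophage marker score as a covariate, 6 arrest and feedback and 2 apoptosis targets rose, none of the 42 fell and *Phlda3* was at -0.03. With the cell cycle score as a covariate, 6 and 1 rose and none fell. Fewer genes were called in each of these fits. Of all 16753 genes tested, 784 were higher with the block, 227 with the macrophage marker score and 285 with the cell cycle score, against 2367 without them. *Bbc3*, which encodes the apoptosis protein PUMA, averaged 11.4 ± 2.56 CPM in fl/fl (SD, n = 7) and 11.2 ± 2.87 CPM in iADKO (SD, n = 6). A p53 response element match with at most 2 mismatches was found in 13 of the 43 listed targets and in 1 of 33 cell cycle genes, beside the 4.86% of all protein-coding genes.

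**Figure D2:**
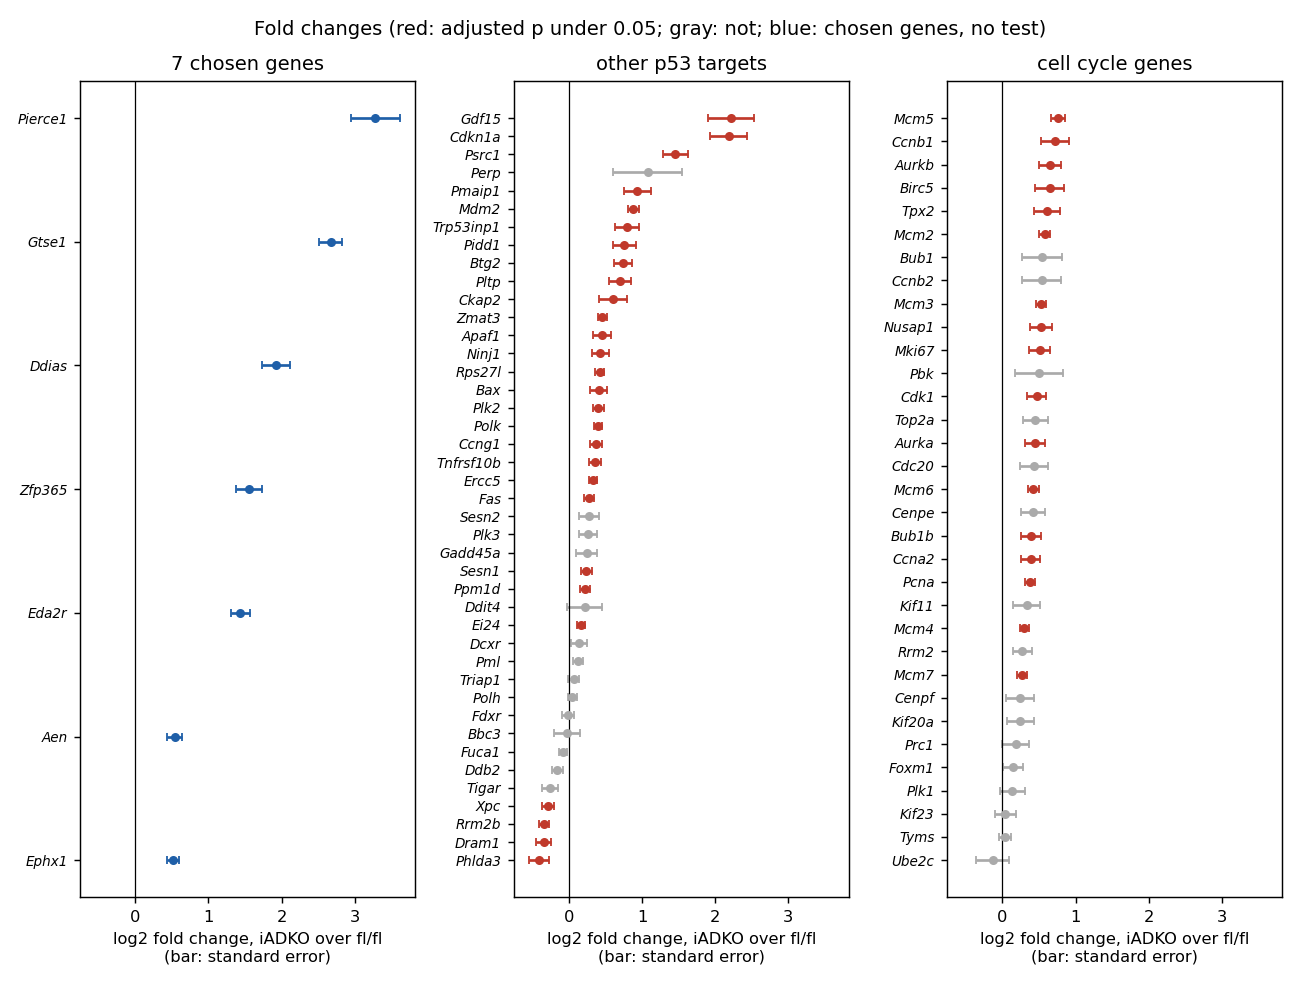
Log2 fold change of iADKO over fl/fl (x axis) with its standard error for the 7 chosen genes (blue, not tested), 42 other p53 targets and 33 cell cycle genes, where red marks an adjusted p under 0.05 and gray one that missed it. Most p53 targets lie above 0, with *Gdf15* at 2.22 and *Cdkn1a* at 2.19 at the top, 4 lie significantly below 0, and the highest cell cycle gene is at 0.75.

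Among 16 tested regulators of p53, 4 rose and 2 fell, beside the 14.1% higher and 16.3% lower of all genes. *Trp53*, which encodes p53, rose from 44.9 ± 3.68 (SD, n = 7) to 61.7 ± 6.17 CPM (SD, n = 6), without overlap between genotypes (log2 fold change 0.46, adjusted p = 0.000593 by edgeR). The checkpoint kinase *Chek1* (0.67, adjusted p = 0.0304), the deacetylase *Sirt1* (0.27, adjusted p = 0.00406) and the acetyltransferase *Ep300* (0.20, adjusted p = 0.0355) also rose by edgeR's test. The kinase *Hipk2* (-0.62, adjusted p = 0.00406) and the ubiquitin ligase *Cop1* (-0.16, adjusted p = 0.0429) fell. With the animal-number series as a block, *Trp53* and *Sirt1* passed (adjusted p = 0.0154 and 0.0344 by edgeR) and the other 4 did not. With the macrophage marker score as a covariate none of the 16 passed, and *Trp53* had an adjusted p of 0.0558 by edgeR. With the cell cycle score as a covariate only *Trp53* passed (adjusted p = 0.0417 by edgeR). *Mdm4*, the partner of *Mdm2*, averaged 175 ± 14.3 (SD, n = 7) and 174 ± 11 CPM (SD, n = 6).

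*Gtse1* and *Ddias* are expressed with the cell cycle, so cell cycle genes were set beside them. Of 33 such genes, 17 rose, none fell and 16 did not pass, beside the 14.1% higher and 16.3% lower of all genes. Their median log2 fold change was 0.42. The largest were *Mcm5*, of the replicative helicase, at 0.75 (adjusted p = 0.000266 by edgeR), *Ccnb1*, cyclin B1, at 0.72 (adjusted p = 0.0116), and the mitotic genes *Aurkb* and *Birc5*, at 0.65 each (adjusted p = 0.00488 and 0.024). *Mki67*, which marks cycling cells, was between 12.5 and 22.7 CPM in fl/fl and between 18 and 29.0 CPM in iADKO, so the genotypes overlapped (log2 fold change 0.51, adjusted p = 0.018 by edgeR). With the animal-number series as a block 9 of the 33 rose, beside 784 of all 16753 genes tested. *Ccnb1*, *Birc5* and *Mki67* did not pass in that fit (adjusted p = 0.0886, 0.0804 and 0.14 by edgeR). With the macrophage marker score as a covariate 3 rose, beside 227 of all genes tested. The log2 fold changes of *Gtse1* and *Ddias*, 2.67 and 1.92, were above that of each of the 33 genes. With the mean log2 CPM of the list as a covariate, that of *Gtse1* was 2.41 and that of *Ddias* 1.57. Of all genes tested, 924 passed in that fit, 285 of them higher, and 10 p53 targets rose. *Gtse1* and *Ddias* were chosen for their difference between genotypes, so their higher fold changes follow in part from the choice. The part of the cell cycle in them was not tested.

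Of 7 tested genes of ectodysplasin signaling, the pathway of *Eda2r*, 2 rose and none fell, beside the 14.1% and 16.3% of all genes. *Edaradd*, the adaptor of the other ectodysplasin receptor, rose (log2 fold change 0.59, adjusted p = 0.0446 by edgeR), as did *Map3k14*, the NF-κB-inducing kinase (0.56, adjusted p = 0.00199). The ligand gene *Eda* averaged 9.04 ± 1.90 CPM in fl/fl (SD, n = 7) and 7.75 ± 0.752 CPM in iADKO (SD, n = 6, adjusted p = 0.211 by edgeR), and *Edar* did not pass the filter on low counts. For *Ephx1*, of 11 tested genes of epoxide and xenobiotic metabolism none rose and 4 fell, namely the glutathione transferases *Gsta3* (log2 fold change -1.01, adjusted p = 0.0281) and *Gstm2* (-0.56, adjusted p = 0.00153), the cytochrome *Cyp2e1* (-0.89, adjusted p = 0.00435) and its reductase *Por* (-0.66, adjusted p = 0.000882), by edgeR. The soluble epoxide hydrolase *Ephx2* averaged 261 ± 76.2 (SD, n = 7) and 200.1 ± 51.8 CPM (SD, n = 6), with an adjusted p of 0.164 by edgeR. Of 10 targets of NRF2, the regulator of the antioxidant response that can also act on *Ephx1*, 4 rose, including *Hmox1*, heme oxygenase 1 (0.80, adjusted p = 0.00568), and 2 fell, the pentose phosphate enzymes *G6pdx* (-0.98, adjusted p = 0.00171) and *Pgd* (-0.85, adjusted p = 0.00533). With the animal-number series as a block, *Map3k14*, *Gstm2*, *Cyp2e1*, *Por* and *G6pdx* passed among the genes of these 3 lists, and with the macrophage marker score as a covariate none did.

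*Aen* encodes an exonuclease, and 7 other exonuclease genes were tested. Of these 2 rose and 1 fell, beside the 14.1% higher and 16.3% lower of all genes. *Isg20l2* (log2 fold change 0.28, adjusted p = 0.0104) and *Eri1* (0.15, adjusted p = 0.0467) rose by edgeR's test. *Isg20*, the interferon-induced relative that lies 1640 bp from *Aen*, fell, with each iADKO value under each fl/fl value (-0.42, adjusted p = 0.00285). *Isg20* alone of the 3 passed with the series as a block or with the macrophage marker score as a covariate (adjusted p = 0.0204 and 0.0283 by edgeR). Genes next to the others were read in the same way. *Ttc38*, 580 bp from *Gtse1*, fell by 0.45 on the log2 scale (adjusted p = 0.00375 by edgeR). *Mrps2*, a mitochondrial ribosomal protein gene 1520 bp from *Pierce1*, fell by 0.32 (adjusted p = 0.0111) and *Det1* near *Aen* by 0.22 (adjusted p = 0.0345). *Prcp*, a lysosomal carboxypeptidase gene that starts 222 bp from *Ddias* and runs the opposite way, rose by 0.52 (adjusted p = 0.00437 by edgeR). Of these neighbors, *Ttc38* and *Prcp* passed with the series as a block (adjusted p = 0.0416 and 0.0466 by edgeR) and neither with the macrophage marker score. *Trmu* beside *Gtse1* (-0.16, adjusted p = 0.0509), *Rtkn2* beside *Zfp365* (0.56, adjusted p = 0.0839) and the other 6 neighbors tested did not pass. *Ppp1r26* overlaps *Pierce1* on the opposite strand and *Tmem63a* overlaps *Ephx1* likewise. Their log2 fold changes were 0.25 and -0.01 (adjusted p = 0.229 and 0.892 by edgeR). The libraries were strand-specific, but whether the counting used strand is not given in the sources used here.

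Markers of several cell types were also called, beside the 14.1% higher and 16.3% lower of all genes. All 9 adipocyte markers fell (median log2 fold change -0.88), and their summed level was 10569 to 20128 CPM in fl/fl and 7142 to 12357 CPM in iADKO, so the tissue was rich in adipocyte RNA in both. Of 9 macrophage markers 6 rose (median 0.67), and their sums were 1836 to 5367 and 3145 to 5426 CPM. Of 5 T cell markers 2 rose (14.0 to 24.9 and 26.7 to 30.7 CPM), as did 2 of 4 B cell markers (19.7 to 53.1 and 33.9 to 72.6 CPM), 2 of 5 epithelial markers (11.4 to 38.9 and 21.8 to 173 CPM) and 1 of 4 tested neural markers (10.3 to 15.9 and 12.6 to 19.6 CPM). Of 5 endothelial markers 2 fell (664 to 890 and 656 to 775 CPM). None of the 6 progenitor markers (2551 to 4038 and 2858 to 4441 CPM), 4 mesothelial markers (272 to 550 and 259 to 642 CPM) or 4 skeletal muscle markers (15.4 to 319 and 9.31 to 175 CPM) passed the test. With the animal-number series as a block, 784 of all 16753 genes tested were higher and 1202 lower. Of the markers, 7 of the 9 adipocyte, 1 of the 5 endothelial and 3 of the 4 skeletal muscle markers then fell. In that fit 1 of the 5 T cell and 1 of the 4 B cell markers rose, and no macrophage, epithelial or neural marker passed. Beside *Pierce1*, the ciliated cell markers *Rsph1* and *Ccdc39* did not pass either, and *Foxj1*, the regulator of motile cilia, had 0 to 5 reads per fl/fl mouse and 1 to 7 per iADKO mouse. The summed level of the 5 ciliated cell markers was 2.86 to 4.23 and 3.14 to 4.78 CPM.

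Some mice had marker levels near those of the other genotype. The 7 genes were chosen for the separation of the genotypes, so that their levels in these mice lay with their own genotype follows from the choice, and the part of cell composition in them was not tested. Scores were the mean log2 CPM of each list. Fl/fl replicate 5 had a macrophage marker score of 8.12, above 5 of the 6 iADKO mice, and an adipocyte marker score of 9.58, below iADKO replicate 6. Its *Gtse1* level, 1.27 CPM, was among the lowest of its genotype, while its *Eda2r* level was the highest. iADKO replicate 6 had a macrophage marker score of 7.48, below fl/fl replicates 5 and 7, and a cell cycle score of 2.23, below 4 of the 7 fl/fl mice. Its *Gtse1* level, 7.41 CPM, and its *Eda2r* level, 12.8 CPM, were the lowest of the iADKO mice. The p53 target scores did not overlap, at 4.54 to 4.66 in fl/fl and 4.89 to 5.07 in iADKO.

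With the macrophage marker score as a covariate, the log2 fold change of *Gtse1* was 2.61 and that of *Eda2r* was 1.08 in place of 1.44. *Pierce1* was then at 3.55, *Ddias* at 1.99, *Zfp365* at 1.54, and *Aen* and *Ephx1* at 0.56 each. Of all genes tested, 593 passed in that fit, 227 of them higher, and 11 p53 targets rose.

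**Figure D3:**
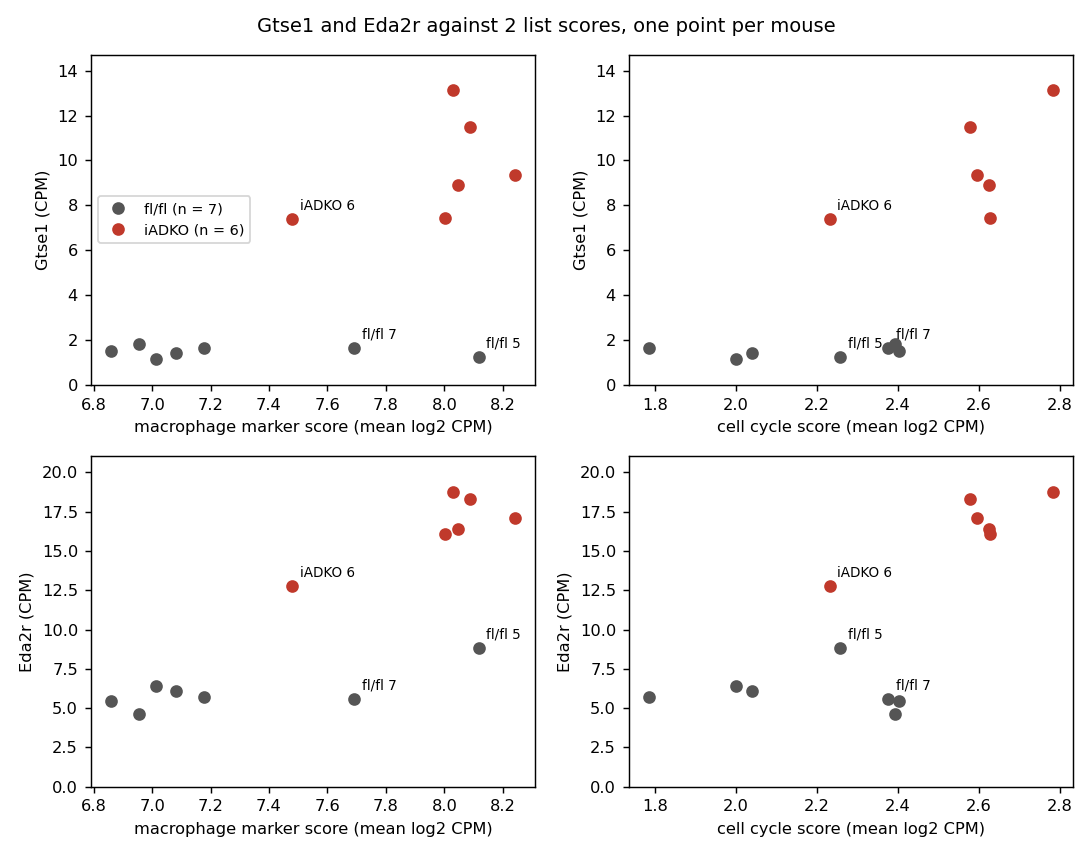
*Gtse1* and *Eda2r* (CPM, y axis from 0) against the macrophage marker and cell cycle scores (mean log2 CPM, x axis), with one point per mouse. Fl/fl replicate 5 and iADKO replicate 6 lie within the macrophage score range of the other genotype, at 8.12 and 7.48. The separation of the genotypes in *Gtse1* and *Eda2r* is what the genes were chosen for.

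The labels give a single batch for all 13 libraries and name no series. The series used here are an assumption, made by placing mice with nearby numbers together, and no single cutoff was applied. The gap in numbers before iADKO replicate 1 was kept inside its series, while an equally wide gap elsewhere separated series. Another cut could move this mouse, so results that use the series depend on the choice. Both genotypes occur in 2 of these series. Where 3 fl/fl mice could be set against 2 iADKO mice, the difference of mean log2 CPM was 2.54 for *Gtse1*, 1.70 for *Eda2r*, 1.55 for *Ddias*, 2.15 for *Pierce1*, 1.70 for *Zfp365*, 0.32 for *Aen* and 0.34 for *Ephx1*. In the other, with 2 mice of each genotype, the corresponding values were 2.53, 1.00, 1.79, 3.13, 1.19, 0.64 and 0.49. With the series as a block, 1986 of all genes passed and 14 p53 targets rose.

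The fold changes of the 7 genes were recomputed under 23 alternatives, and the 160 values obtained were all above 0. The genes were chosen for the separation of these same mice, so the sign follows largely from the choice and only the sizes are read here. The lowest of each gene came from the deposited regularized log values, which shrink differences of genes with few reads. On that scale *Gtse1* was at 1.33, *Eda2r* at 0.92, *Zfp365* at 0.74, *Ddias* at 0.71, *Pierce1* at 0.57, and *Aen* and *Ephx1* at 0.38 each. *Pierce1* thus went from the highest of the 7 to the fifth.

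**Figure D4:**
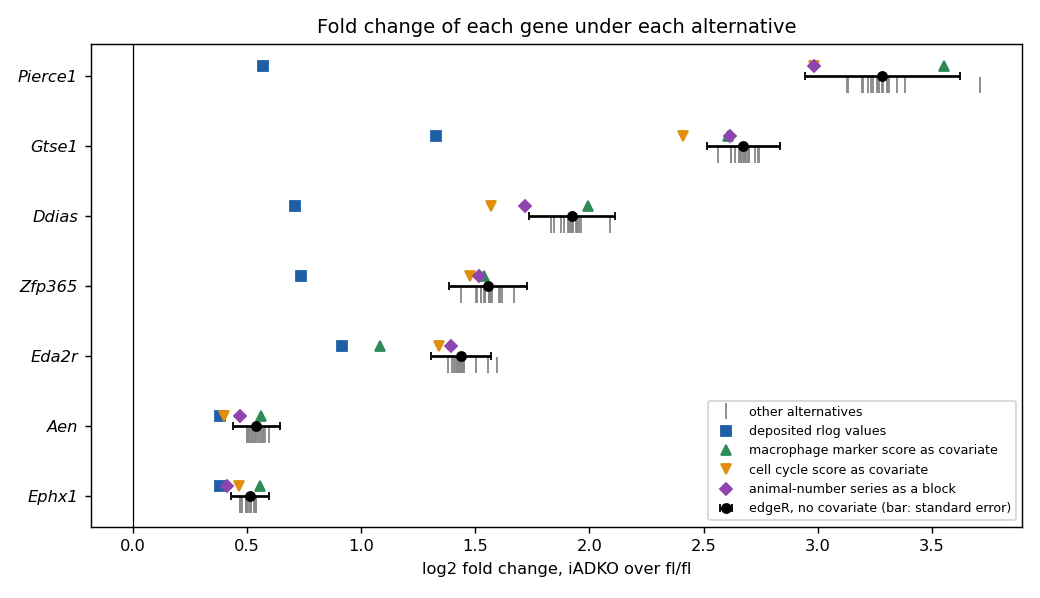
Log2 fold change of each gene (x axis) from edgeR without covariates (black, with its standard error) and under each alternative (other symbols). All symbols lie above 0, which follows largely from the choice of the genes. The deposited regularized log values (blue squares) lie lowest in every gene, and the macrophage score (green triangles) lowers *Eda2r* from 1.44 to 1.08.

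Whether mice of one genotype with more of one gene also had more of another was asked within each genotype. The choice of the genes did not compare them in this way, but it rested on the same values of these mice. Of the 42 pairs, 21 in each genotype, none passed an adjusted p of 0.05 by an exact two-sided permutation test (6 passed unadjusted), and the smallest p such a test can give is 0.000397 with 7 mice and 0.00278 with 6. In iADKO, 16 of 21 pairs had a positive Pearson's r (median 0.59), and in fl/fl 12 of 21 (median 0.08). The strongest was *Ddias* with *Pierce1* in fl/fl (r = 0.94, p = 0.00198, adjusted p = 0.0833, and rho = 0.86, p = 0.0238, adjusted p = 0.28, exact permutation tests), which was 0.85 without the 2 mice farthest from the median. *Pierce1* had at most 8 reads in these mice. In iADKO the same step left 4 mice, and r then ranged from -0.77 (*Pierce1* with *Ephx1*) to 0.98 (*Eda2r* with *Zfp365*). *Gtse1* went from 0.79 to -0.03 with *Ddias* and from 0.60 to -0.55 with *Pierce1*, but only from 0.82 to 0.70 with *Eda2r*. The share of positive pairs among all genes was not measured. *Gtse1* and *Eda2r* had r = 0.82 in iADKO (p = 0.0236, adjusted p = 0.248, exact permutation test; rho = 1) and -0.76 in fl/fl (p = 0.0395, adjusted p = 0.293, exact permutation test; rho = -0.86). The difference between these was not tested. *Gtse1* and *Zfp365* had r = 0.88 in iADKO (p = 0.0208, adjusted p = 0.248, exact permutation test; rho = 0.89), and *Ephx1* had a negative r with each of the others in iADKO except *Aen*.

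**Figure D5:**
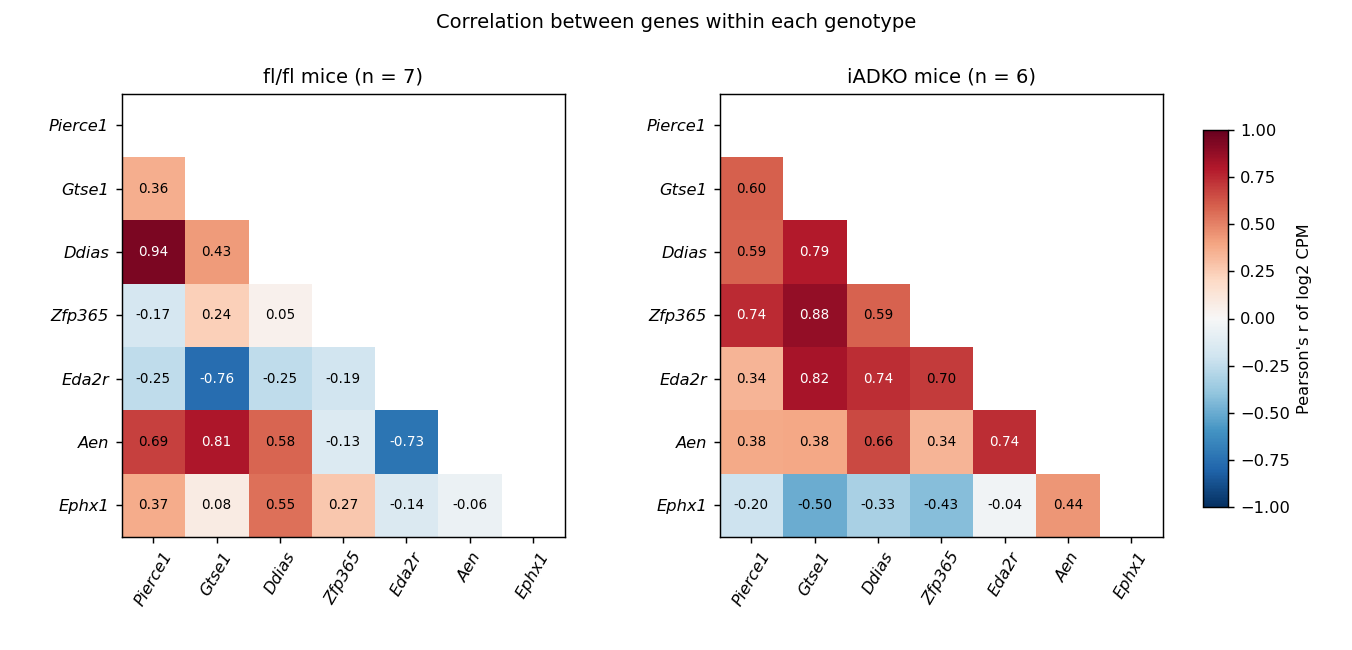
Pearson's r of log2 CPM for each pair of the 7 genes within the fl/fl mice (left) and the iADKO mice (right), colored from -1 to 1. With all mice kept, the iADKO pairs without *Ephx1* are all positive. In fl/fl *Eda2r* has a negative r with each of the other genes, down to -0.76 with *Gtse1*. No pair passed after adjustment.

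None of the 56 relations with the p53 target, cell cycle, macrophage and adipocyte scores passed after adjustment (smallest adjusted p = 0.111, exact permutation test), and 4 passed unadjusted. In iADKO all 7 genes had a positive r with the p53 target score (0.11 to 0.88, median 0.64) and with the cell cycle score (0.07 to 0.91, median 0.65). With the macrophage marker score 6 of 7 were positive (median 0.37), and with the adipocyte marker score none was (-0.86 to -0.07, median -0.30). In fl/fl the medians were 0.29 with the p53 target score and 0.21 with the cell cycle score, each with 5 of 7 positive, and -0.19 and 0.24 with the macrophage and adipocyte scores, with 1 and 6 of 7 positive. The strongest relation was that of *Eda2r* with the adipocyte marker score in fl/fl (r = -0.97, p = 0.00198, and rho = -0.82, p = 0.0341, adjusted p = 0.648, exact permutation tests). Without the 2 mice farthest from the median it was -0.63, and fl/fl replicate 5 is at the end of both measures. In iADKO the r of *Eda2r* with the cell cycle score, 0.91, went to -0.98 in the 4 mice left after the same step, and that of *Gtse1* from 0.65 to -0.91, so these relations rest on the mice left out.

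The genes most like each of the 7 were sought by Pearson's r of the deviations of log2 CPM from the genotype means over the 13 mice, among 13853 other genes with a mean log2 CPM of at least 1 (13854 for *Pierce1*). These are the highest of many, so r is given as a description. Closest to *Gtse1* were *Elovl1* (r = 0.92), a fatty acid elongase, *Thoc6* (0.90), of an mRNA export complex, and *Leprotl1* (0.89). Closest to *Eda2r* were *Nav1* (0.97), *Tnfrsf14* (0.96), which encodes another receptor of the same family, and *Gm44423* (0.95). *Atg101*, an autophagy gene, was among the closest to both *Ddias* and *Pierce1* (0.92 for each), with *Ttpal* (0.92) and *5430430B14Rik* (0.89) for *Ddias*, and *Ell2* (0.89) and *Ddias* itself (0.88) for *Pierce1*. *Zfp365* was closest to *Hdac7* (0.86), *Msx1* (0.84) and *Dchs1* (0.81). *Aen* was closest to *Hsp90aa1* (0.89), an inducible chaperone, *Rrp8* (0.87) and *Zfand2a* (0.86), and *Ephx1* to *Pcdhga11* (0.90), *Prpsap1* (0.87) and *H1f2* (0.84). Among these, *Elovl1*, *Thoc6*, *Zfand2a* and *Ddias* were higher in iADKO by edgeR's test, and the rest did not pass.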

How the data were processed

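RNA from powdered frozen pmWAT was made into strand-specific mRNA libraries, one per mouse. Per the labels and the submitters' processing notes, reads were checked with FastQC 0.12.1, aligned with STAR 2.7.11a to mm39 and analyzed with DESeq2. The counting tool, its strand setting and the annotation are not given in the sources used here. The authors deposited raw counts for 33618 Ensembl genes and the log2 values that DESeq2's regularized log makes from them. Groups were taken from the sample labels, and all columns of values were mapped to a sample.

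In R 4.3.3, edgeR 4.0.16's filterByExpr left 16753 genes, which were normalized by TMM and compared with its robust quasi-likelihood test (Benjamini-Hochberg, threshold 0.05). Log2 CPM used a prior count of 2. The fits were tested on simulated data. The counts hold no molecular identifiers, so counting errors cover counting only. Symbols and coordinates are from GENCODE vM39 (33184 identifiers found). Alternatives were DESeq2 1.42.0, its size factors, limma 3.58.1 on the deposited log2 values, other filters, blocks, score covariates and each mouse left out.

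The 7 genes and the gene lists were chosen with earlier results of these data known, so no list is independent evidence. Genes named are the 7, up to 4 higher and 4 lower per list where the text names them, genes needed for a role, the nearest neighbor tested on each side, and the 3 genes most like each. Some single-gene results are left out. *Bbc3*, *Isg20l2*, *Eri1* and the overlapping genes were named for their role or position. In RefSeq promoter windows of GRCm38.p6, from 250 bases before to 50 after a start, which 6 of the 7 genes had, a p53 match with at most 2 mismatches was counted in 0.326% of 32851 windows, and in windows of *Zfp365* and *Gtse1*.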

Additional observations from a re-analysis of the deposited data

Results flagged for a closer look

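Each of the 7 genes, *Lmna* and the 4 list scores was checked within each genotype for 1 mouse whose gap to the nearest other mouse was large relative to the range of the group (Dixon's 95% critical value). Of 24 groups 6 were marked, where chance marks about 1 in 20, and the groups share mice. Fl/fl replicate 5 was high in *Eda2r* (8.86 CPM, with the others between 4.66 and 6.40) and low in the adipocyte marker score (9.58, with the others between 10.2 and 10.6). Fl/fl replicate 3 was high in *Pierce1* (0.462 CPM, with the others between 0.0537 and 0.22). Fl/fl replicate 4 was high in *Zfp365* (3.06 CPM, with the others between 1.66 and 2.21). iADKO replicate 6 was low in the cell cycle score (2.23, with the others between 2.58 and 2.78) and in the macrophage marker score (7.48, with the others between 8.0 and 8.24). Without fl/fl replicate 3 the log2 fold change of *Pierce1* was 3.71, and without fl/fl replicate 4 that of *Zfp365* was 1.67.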

How the results depend on the processing

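Of the 160 fold changes of the 7 genes under 23 alternatives, 153 moved by less than the spread between mice. Those that moved more were, on the deposited log2 values, *Gtse1* at 1.33, *Eda2r* at 0.92, *Ddias* at 0.71, *Pierce1* at 0.57 and *Zfp365* at 0.74 (median of the 7 genes 0.71, median of the cell cycle list 0.19), *Eda2r* at 1.08 with the macrophage score as a covariate and *Ddias* at 1.57 with the cell cycle score, where the cell cycle median was 0.0135, as this covariate is made from the list. Genes called were 5104 (2367 higher), with 24 p53 targets higher. They were 1986 (784 higher) and 14 with the animal-number series as a block, 593 (227 higher) and 11 with the macrophage score, and 924 (285 higher) and 10 with the cell cycle score. These fits estimate more terms from the same 13 mice, and with the block the mice in series of a single genotype add nothing to the genotype contrast. The rest of the cause was not tested. Leaving out each mouse in turn gave 3998 to 6604 genes called, 20 to 25 p53 targets higher, cell cycle medians of 0.36 to 0.47 and medians of the 7 genes of 1.44 to 1.67. Without both fl/fl replicate 5 and iADKO replicate 6, chosen after these data were seen, 7192 genes were called. None of the 56 score relations passed on the deposited log2 values or with a prior count of 0.5. The 4 or 5 mice left without the 2 farthest were not tested.

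The labels do not say whether the replicate numbers pair mice. Same-numbered mice had residual correlations of -0.03 to 0.22, over 0.1 in 3 of 6 pairs, with a mean of 0.107 against -0.02 for other pairs, so the numbers were not used as pairs. With the replicate block, 4833 genes were called, 22 p53 targets rose, and the log2 fold changes were 2.68 for *Gtse1*, 1.43 for *Eda2r*, 1.92 for *Ddias*, 3.24 for *Pierce1*, 1.56 for *Zfp365*, 0.56 for *Aen* and 0.47 for *Ephx1*. Depth limits *Pierce1* most, with 1 to 8 reads per fl/fl mouse.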
